A study of Caenorhabditis elegans with 4 samples.

Results

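The left 3 Mb of chromosome III of Caenorhabditis elegans held 668 of the 9439 peaks in the series-wide ZIM-1 list. They are all peaks on III whose midpoint lies at or below base 3000000 on WormBase release WS220. This end carries the pairing center of III, and position alone chose the peaks. ChIP replicate 1 had 419 peaks in the same interval and replicate 2 had 287. The 2 ChIP and 2 input libraries of the study came from hermaphrodites of 1 strain, fem-2(b245), which carries this allele on III. The ChIP used an affinity-purified rabbit polyclonal antibody, SDQ3965, raised against a stretch of ZIM-1, and the inputs were genomic DNA of the same strain without immunoprecipitation. Worms were kept at 20 °C. The stage label reads young adult with a germline, while the growth protocol describes gravid adults. Frozen whole worms were ground and fixed with 1% formaldehyde for 10 min, so the extract mixes nuclei of the soma and the germline and a peak does not tell in which of them ZIM-1 was bound. The titles number the libraries of each group 1 and 2. Whether the libraries of a group stem from separate cultures is not given, so their differences may be technical only. No lists from worms lacking ZIM-1 were analysed here, and the specificity of the antibody was not tested.

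Homologous chromosomes must find each other and pair before they can recombine in meiosis. In C. elegans each chromosome has a pairing center near 1 end. A family of zinc finger proteins, ZIM-1, ZIM-2, ZIM-3 and HIM-8, binds these regions, which are rich in short repeated motifs, and links them to the nuclear envelope and the cytoskeleton beyond it. ZIM-1 is known for serving chromosomes II and III. The gene fem-2 is needed for male cell fates, sperm included.

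The series-wide list came from MACS v2 and the replicate lists from MACS. The score that each peak carries is the authors' own, on scales that differ between lists. It ran from 1.3 to 174.44 in the series-wide list. It began at 50 and 50.01 in the replicate lists, where many strong peaks were tied at 3100. Scores are therefore read only within a list. Read depth is unknown. Intervals given with densities and shares are at 95%, and peaks cluster, so they understate the uncertainty.

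ZIM-1 peaks were denser over this end of III than over the other 10.8 Mb of the chromosome in all 3 lists. The series-wide list had 222.7 peaks per Mb on the left 3 Mb (interval 206.1 to 240.2) and 112.6 on the rest of III (106.3 to 119.1), a ratio of 1.98. Replicate 1 had 139.7 against 60.3 peaks per Mb, a ratio of 2.32. Replicate 2 had 95.7 against 33.8 peaks per Mb, a ratio of 2.83. The ratio was therefore on the same side of 1 in both ChIP libraries, and higher in each than in the series-wide list. Against the right 3 Mb of III, at the opposite end, the ratio was 1.67 in the series-wide list, 1.78 in replicate 1 and 2.52 in replicate 2. No test was made of these differences, since peaks are not independent and the only samples with lists are the 2 ChIP libraries.

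Coverage gave the same order. Peaks covered 11.5% of the left 3 Mb and 5.19% of the rest of III in the series-wide list, 10.9% and 4.42% in replicate 1, and 8.51% and 2.53% in replicate 2. The left end held 7.08% of all nuclear series-wide peaks, 7.55% of those of replicate 1 and 9.94% of those of replicate 2, on 2.99% of the nuclear sequence. Widths differed less than density. The median series-wide peak was 288 bp wide on the left end and 285 bp on the rest of III. The medians of replicate 1 were 547 bp on the left end and 501.5 bp on the rest of III, and those of replicate 2 were 594 and 576.5 bp.

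Median scores on this end were above those elsewhere on III in all 3 lists, a difference that was not tested. The median series-wide score was 13.05 (quartiles 6.33 and 39.2), against 7.46 on the rest of III (4.70 and 15.3). In replicate 1 the medians were 213.1 and 155.5, and in replicate 2 they were 235.5 and 184.3. The top 10% of series-wide scores, 10.1% of the nuclear list with ties, took in 133 of the 668 peaks (19.9%) and 8.98% of the rest of III. In replicate 1 it took in 72 of 419 peaks (17.2%), where it made up 10.0% of the list. In replicate 2 it took in 32 of 287 (11.1%), where it also made up 10.0%, against 3.85% of the rest of III. Read against the whole list, the share of top scores was thus above the background in the series-wide list and replicate 1 and near it in replicate 2.

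The replicates were then used to ask which of the 668 sites recurred. The series-wide list stands for the whole series and may hold the reads of both replicates. Its sites and scores are then not independent of recurrence. Both ChIP replicates had a peak at 253 of the 668 sites, or 37.9% (34.2 to 41.7), where the share over all nuclear peaks was 25.9%. On the rest of III it was 25.5% (23.1 to 28.1). A replicate peak that met more than 1 series-wide peak counts for each of them, here and in the other regions. The 253 sites are thus not all separate recurrences. In each replicate, 1 peak met 5 of them. Replicate 1 alone had a peak at a further 173 sites (25.9%), and replicate 2 alone at 41 (6.14%). Neither had one at the other 201 (30.1%), where 35.6% of all nuclear peaks lacked both. Sites found in both were high and wide, with a median score of 57.7 and a median width of 561 bp. Sites found in neither had a median score of 5.33 and a median width of 190 bp, and none of them was wider than 559 bp. The 253 recurrent sites made up 84.3 per Mb, against 28.7 per Mb on the rest of III, a ratio of 2.93.

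Recurrence went with the series-wide score, which is not independent of it if the lists share reads. Of the 668 peaks, 290 lay in the highest 25% of all nuclear scores, above 17.49, which is 43.4% of them against 21.7% of the rest of III. Within that range 82.4% of the peaks on the left end were found in both replicates (77.5 to 86.6), against 87.9% on the rest of III (83.3 to 91.6). In the next 25%, with scores above 7.86, the shares were 5.70% (2.64 to 10.5) and 20.9% (16.5 to 25.8), and the median widths 227.5 and 362 bp. Above 4.70 and up to 7.86, 1 of 108 peaks on the left end and 7 of 321 on the rest of III were found in both, and at or below 4.70 it was 4 of 112 and 5 of 313. The share found in both was thus lower on the left end in the upper 3 of these ranges. It was higher in the lowest, where few peaks recurred. None of these differences was tested. On the left end all 4 recurrent peaks of the lowest range met the same replicate peaks as a neighbouring series-wide peak of higher score. Their recurrence was thus not separate from that of the neighbour. Such sharing was not counted for the rest of III. Peaks on the left end scoring 7.86 to 17.49 were narrower, and a narrow peak meets an overlap of 1 bp less easily. The part of width in that difference was not tested.

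Counted from the replicate lists, 244 of the 287 replicate 2 peaks met a replicate 1 peak, or 85.0% (80.4 to 88.9), where the share over the nuclear list was 84.2%. Conversely, 248 of the 419 replicate 1 peaks met a replicate 2 peak, or 59.2% (54.3 to 63.9), where the share over the nuclear list was 43.9%. Among peaks in the top 10% of their list, 71 of 72 on this end in replicate 1 and 31 of 32 in replicate 2 were found in the other library, or 98.6% and 96.9%. Over the nuclear lists 97.5% and 97.2% of such peaks were, so these shares were near the background. By bases, 86.6% of the 255.2 kb covered in replicate 2 was also covered in replicate 1, and 67.8% of the 325.9 kb of replicate 1 was covered in replicate 2. All 3 lists shared 199.6 kb.

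Overlapping peaks of the replicates sat on nearly the same spot. The midpoints of the 244 pairs were a median of 28 bp apart (quartiles 13 and 83), and 189 pairs lay within 100 bp. On the rest of III the median was 49 bp (18 and 125). Scores of the pairs were correlated, with 0.76 for Spearman's rho and 0.77 for Pearson's r of log10 scores, against 0.59 and 0.61 over the 317 pairs on the rest of III. Without the pairs at or above the tied score of 3100 in either library, rho was 0.67 over 213 pairs and 0.64 over 290 pairs. These are descriptions over regions of the same 2 libraries, with no p. Pairs were counted per replicate 2 peak, so a replicate 1 peak that was split in replicate 2 enters more than 1 time: the 244 pairs on the left end hold 233 replicate 1 peaks, and the 317 on the rest of III hold 299. Over all pairs the left 3 Mb of II was close to the left end of III, with 0.78 for rho and 0.79 for r over 165 pairs. Without the tied pairs rho on the left of II was 0.78 over 126 pairs, above both parts of III. Midpoints on the left of II were a median of 42 bp apart (quartiles 13 and 189), nearer to the rest of III than to its left end.

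**Figure D1:**
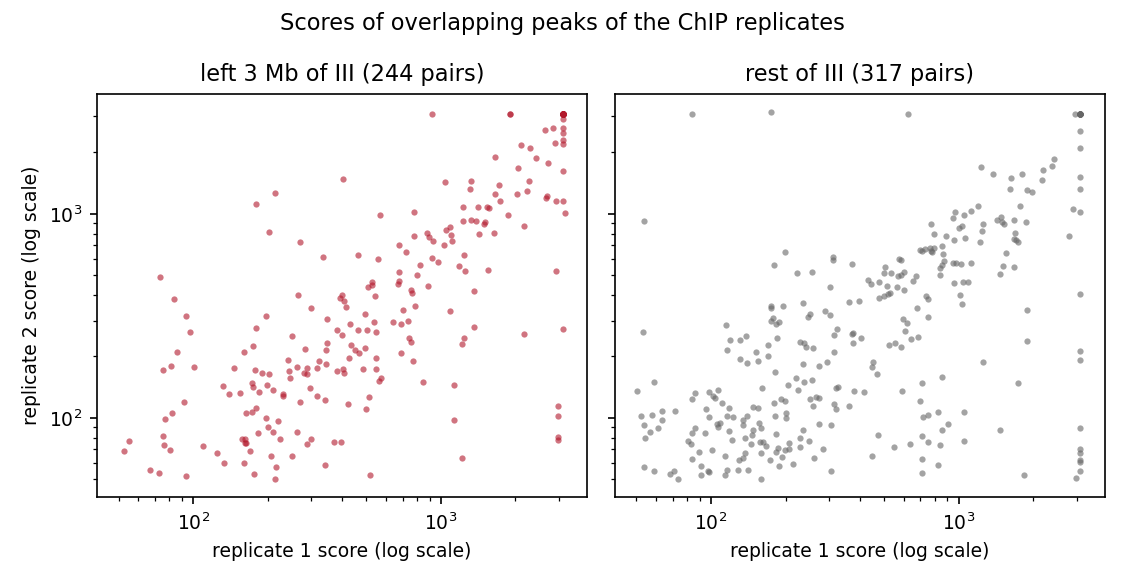
Scores of overlapping peaks of the ChIP replicates on log axes, replicate 1 across and replicate 2 up, for the left 3 Mb of III (left panel, 244 pairs) and the rest of III (right panel, 317 pairs). Each point is 1 replicate 2 peak with the replicate 1 peak it overlaps most. Points at 3100 are tied at that score.

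The pairing center of II is the other known target of ZIM-1, and the left 3 Mb of II was the end most like that of III in recurrence. There 167 of 460 series-wide peaks were found in both replicates, or 36.3% (31.9 to 40.9). At the other 10 ends, each of 3 Mb, the share ran between 17.1% at the left end of V and 26.7% at the right end of V. Recurrent sites numbered 84.3 per Mb on the left of III and 55.7 per Mb on the left of II, against 12 to 39.7 per Mb at the other 10 ends. In plain density the left end of III came first of 12 in all 3 lists. The left end of IV was second in the series-wide list, with 179.7 peaks per Mb, although 21.9% of its peaks were found in both. The top 10% of scores held 19.9% of the peaks on the left of III and 19.8% on the left of II, against 4.29% to 12.3% elsewhere. Peaks tied at the highest score, 0.827% of the nuclear list, numbered 5 on the left of III (0.749%), near the background, and 9 on the left of II. Chromosome IV had 7 at its right end and 4 at its left, and the others 0 to 3 each, so these peaks did not set the left end of III apart. Ends are regions of the same libraries, so their order is a description and was not tested.

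**Figure D2:**
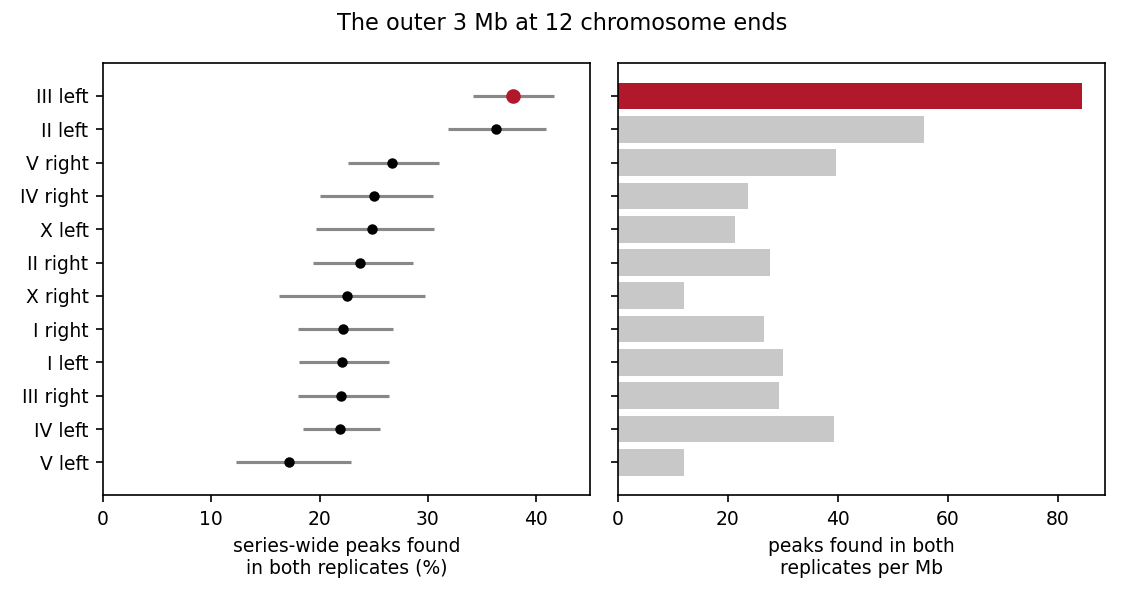
The outer 3 Mb at 12 chromosome ends, with III left in red at the top and the others in order of recurrence. Left panel, percent of series-wide peaks found in both ChIP replicates, with exact 95% intervals; right panel, the number of such peaks per Mb. III left (37.9%) and II left (36.3%) lie above the other 10 ends, whose highest share is 26.7%.

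Along the interval the peaks fell into dense stretches separated by nearly bare ones. Over 30 windows of 100 kb the count ran from 3 to 56 with a median of 20. Windows on the rest of III had 0 to 28 peaks with a median of 11, and none of those 107 windows reached 40 peaks, while 4 windows on the left end did. The 10 densest windows held 371 of the 668 peaks (55.5%), and the same windows took in 59.4% of peaks in replicate 1 and 60.6% in replicate 2. Windows picked as the densest hold more than their share by selection, and no such share was computed for the rest of III. They were picked by series-wide counts, and nearly all replicate peaks met a series-wide peak. The replicate shares were thus largely set by the choice and do not measure agreement. Across the 30 windows, which share the same 2 libraries, the counts of the replicates gave 0.87 for Spearman's rho and 0.85 for Pearson's r. At least 1 recurrent site lay in 29 of the 30 windows, a count that was not taken for the rest of III.

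The densest window, from 1.5 to 1.6 Mb, also ranked first in both replicates, with 41 and 30 peaks. From 1.8 to 1.9 Mb there were 54 series-wide, 33 replicate 1 and 23 replicate 2 peaks. The window from 1.1 to 1.2 Mb had 44, 32 and 19 peaks in the same lists. From 1.6 to 1.7 Mb there were 40, 20 and 13, and from 2.1 to 2.2 Mb 36, 22 and 24. The window from 0.3 to 0.4 Mb had 31 series-wide and 30 replicate 1 peaks but 8 in replicate 2, although peaks covered 33.4% of it in replicate 1 and 24.1% in replicate 2. The others of the 10 were those from 0 to 0.1 Mb with 30 peaks, 1.9 to 2.0 Mb with 28, 2.4 to 2.5 Mb with 27 and 1.4 to 1.5 Mb with 25. Recurrence differed among them. From 1.9 to 2.0 Mb 22 of 28 peaks were found in both replicates (78.6%), and from 1.5 to 1.6 Mb 32 of 56 were (57.1%), whereas from 0.3 to 0.4 Mb 8 of 31 were (25.8%).

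Replicate peaks were few or absent in the bare stretches as well. The emptiest windows lay from 1.3 to 1.4 Mb with 3 series-wide peaks, from 0.7 to 0.8 Mb with 4 and from 2.6 to 2.7 Mb with 5. Replicate 1 had 3, 3 and 2 peaks in these windows, and replicate 2 had 2, 5 and 1. By its own counts replicate 2 was not among its emptiest from 0.7 to 0.8 Mb, where the window ranked 21 of 30. The longest stretch without a series-wide peak ran from 704710 to 793431, or 88.7 kb. It was followed by stretches from 1321004 to 1407573 (86.6 kb), 2882830 to 2946454 (63.6 kb), 2219266 to 2271461 (52.2 kb) and 2611790 to 2661767 (49.98 kb). No peak of either replicate had its midpoint in any of these 5 stretches. The stretches were picked as gaps of the series-wide list. Only 9 of 419 replicate 1 peaks and 2 of 287 replicate 2 peaks met no series-wide peak. This absence was thus nearly fixed by the choice and does not measure agreement.

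**Figure D3:**
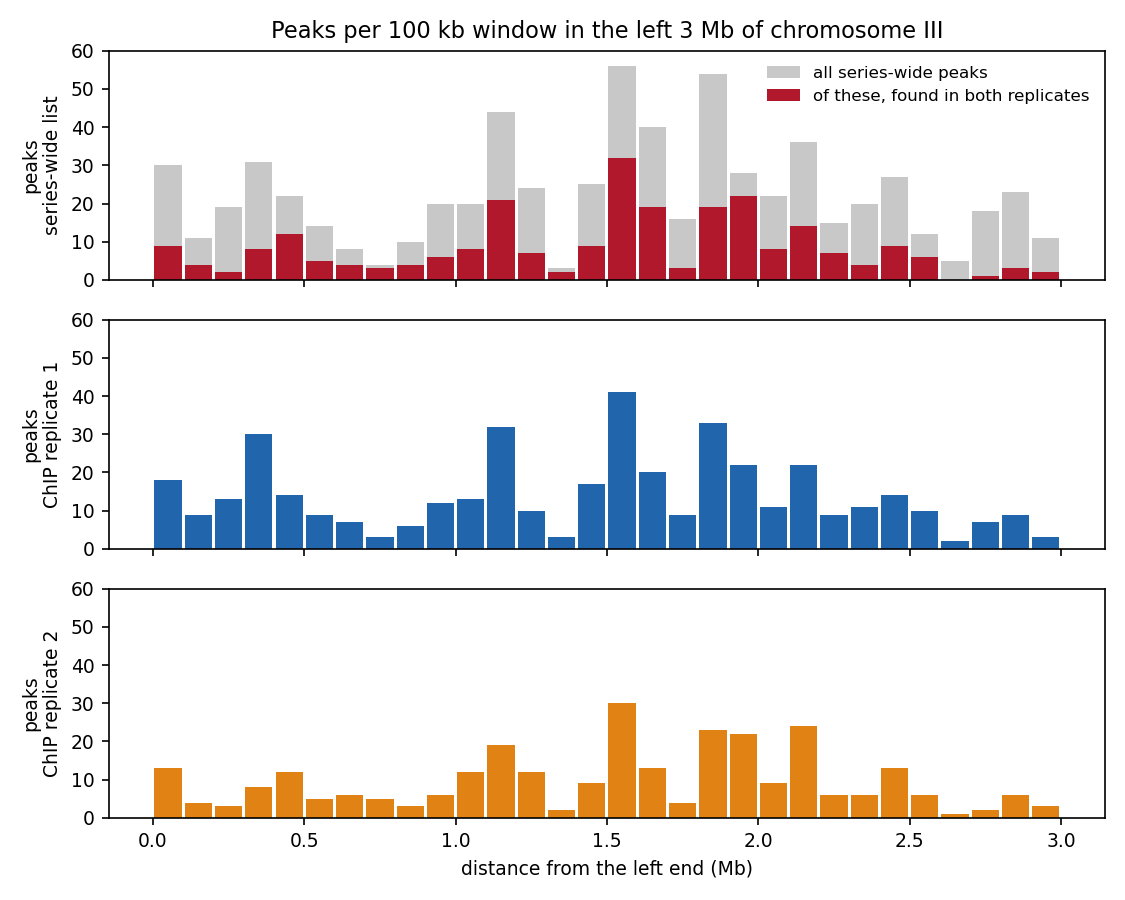
Peaks per 100 kb window along the left 3 Mb of III, by distance from the left end, in the series-wide list (top, with peaks found in both replicates in red), replicate 1 (middle) and replicate 2 (bottom). All 3 lists have their highest bar at 1.5 to 1.6 Mb and low bars near 1.3 and 2.6 Mb. Near 0.7 Mb the bar is low in the series-wide list and in replicate 1, while replicate 2 has 5 peaks there.

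In 0.5 Mb steps from the left end, coverage largely rose with the number of peaks, except in the first step. The first 0.5 Mb had 113 peaks that covered 20.1% of it in the series-wide list, 18.9% in replicate 1 and 14.3% in replicate 2. The next 0.5 Mb had 56 peaks and coverages of 5.43%, 5.36% and 3.69% in the same lists. From 1.0 to 1.5 Mb there were 116 peaks covering 11.2%, from 1.5 to 2.0 Mb 194 covering 15.7%, from 2.0 to 2.5 Mb 120 covering 11.7% and from 2.5 to 3.0 Mb 69 covering 5.10%. Replicate 1 covered 16.3% and replicate 2 13.0% of the step from 1.5 to 2.0 Mb, so the first step was the most covered in all 3 lists. Peaks of at least 1 kb numbered 27 in the first 0.5 Mb and 12 from 1.5 to 2.0 Mb. The share found in both was highest from 1.5 to 2.0 Mb, at 48.97% (41.7 to 56.2), and lowest from 2.5 to 3.0 Mb, at 17.4% (9.32 to 28.4).

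**Figure D4:**
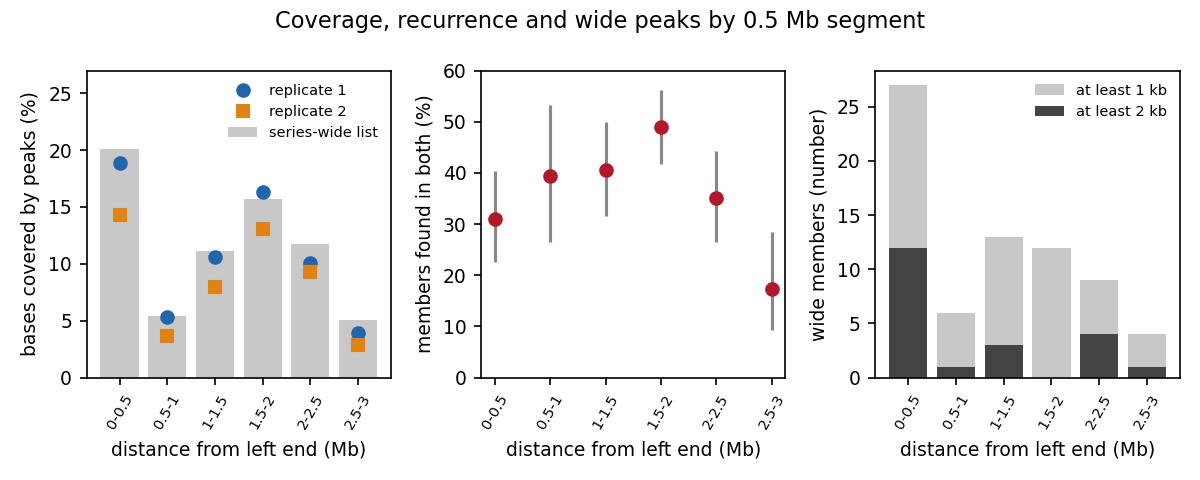
Steps of 0.5 Mb from the left end. Left, percent of bases covered by peaks in the series-wide list (bars) and in each replicate (points); middle, percent of the 668 peaks found in both replicates with exact 95% intervals; right, numbers of peaks at least 1 kb and at least 2 kb wide, 27 and 12 in the first step.

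Most of the highest-scoring sites lay near the tip. Of the 20 named sites with the highest series-wide score, 13 lay in the first 0.6 Mb, which holds 127 of the 668 peaks (19.0%). The other 7 lay between 1.0 and 3.0 Mb. All 20 were found in both replicates. The sites were picked by series-wide score, which went with recurrence and may draw on the same reads. Neither this count nor their replicate scores are therefore independent support for them. Of nuclear peaks outside the left 3 Mb of III that scored above 17.49, 85.9% were found in both. No share was computed for peaks elsewhere as high as these 20. The 20 sites scored 148.8 to 174.44 and were 387 to 6449 bp wide. A score of 3100 or more was reached by 15 of them in replicate 1, 15 in replicate 2 and 14 in both. Over the nuclear lists 4.25% of replicate 1 peaks and 7.90% of replicate 2 peaks reached that score. On the left 3 Mb 28 of 419 replicate 1 peaks did, 18 of them in the first 0.6 Mb. Of 287 replicate 2 peaks there 23 did, 15 of them in the first 0.6 Mb. For the whole interval this was above the nuclear share in replicate 1 and near it in replicate 2. The boundary of 0.6 Mb was drawn after the values were seen. The wider class of the top 10% of series-wide scores was not concentrated there: it took in 26 of the 127 peaks of the first 0.6 Mb (20.5%) and 107 of the 541 beyond it (19.8%). In replicate 1 it took in 29.0% of peaks in the first 0.6 Mb and 13.8% beyond, and in replicate 2 37.8% and 6.20%. The median series-wide score was lower in the first 0.6 Mb, at 7.02, than beyond it, at 14.88.

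From the tip inward, the first peak of the chromosome spanned bases 1 to 422 with a score of 26.5, and it met a replicate 1 peak of score 462.9 and a replicate 2 peak of 630.9. A pair of tied sites followed, from 77812 to 80941 (3130 bp) and from 84066 to 87653 (3588 bp), each with a score of 174.44 and with 3100 in both replicates. They belong to a run of 7 peaks with gaps of at most 1 kb that spans 77518 to 87653 and is 91.0% covered. The widest tied site ran from 185846 to 192294 (6449 bp). Its replicate 1 peaks reached from 185865 to 192035 and its replicate 2 peak from 185788 to 192325. Next to it lay a site of 1325 bp from 192419 to 193743, scoring 173.6. Both sites had 3100 in each replicate, and their run, from 185846 to 194116, was 96.3% covered.

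The longest run spanned 34.2 kb, from 315981 to 350133, with 17 series-wide peaks that covered 79.3% of it. It contains the widest of the 668 peaks, from 321699 to 333127 (11429 bp), which had a score of 67.4. Replicate 2 marked that site with 1 peak of 3100, from 321646 to 333217, and replicate 1 with 9 peaks of at most 1893, from 321768 to 333137. The outer edges of the site thus lay close together in the 3 lists, which differed in how it was split. Inside the same run lay 4 named sites, from 333648 to 335310 (score 172.8), 336624 to 338506 (162.4), 339921 to 341905 (166.7) and 343675 to 347807 (173.9). Each of these 4 had 3100 in both replicates. Of the 17 peaks of the run 8 were found in both.

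Further sites with 3100 in both replicates closed this stretch. One tied site ran from 424283 to 428446 (4164 bp, score 174.44), in a run from 422339 to 428446. A site from 470092 to 471932 (score 173.7) belongs to a run of 6 peaks from 469567 to 479456 that is 90.7% covered. Its replicate 2 peak reached on to 475146, into the next site. A wider site lay from 489798 to 493879 (4082 bp, score 157.6). Last came a pair from 577767 to 579831 (score 170.0) and from 580361 to 581812 (1452 bp, tied at 174.44).

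**Figure D5:**
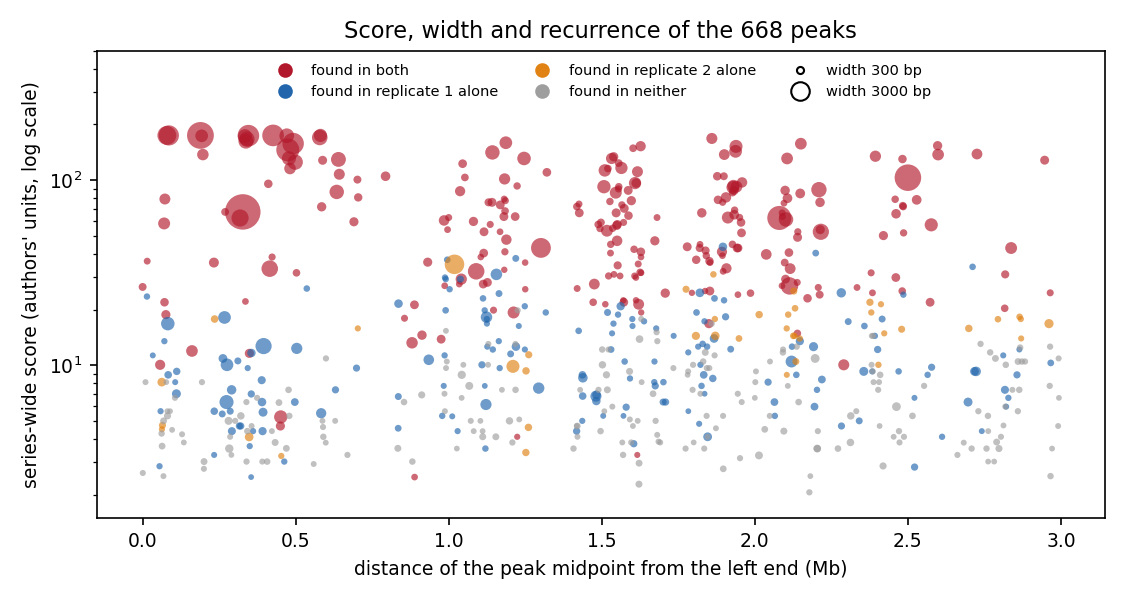
Series-wide score (log axis) against distance of the midpoint from the left end for all 668 peaks, with point area growing with peak width and color giving the replicates in which a peak was found. Wide, high-scoring red points gather in the first 0.6 Mb, and narrower red points lie in columns between 1.0 and 2.6 Mb.

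Beyond 1 Mb the named sites were narrower. The highest of the step from 1.0 to 1.5 Mb ran from 1186018 to 1187347 (score 159.3), with 3100 in replicate 1 and 2632 in replicate 2. It is part of a run of 9 peaks from 1180080 to 1188853, and all 9 were found in both replicates, with scores from 32.8 upward. The run held 8 replicate 1 and 7 replicate 2 peaks, so some of the 9 shared a replicate peak. From 1.5 to 2.0 Mb the highest was a site of 969 bp from 1859147 to 1860115 (168.0), with 2269 and 1442 in replicates 1 and 2. The site from 1602212 to 1602598 (148.8) was the narrowest of the 20, with replicate scores of 1510 and 913.0. The site from 1626618 to 1627435 (152.6) met replicate peaks of 1909 and 3100. Those peaks reached to 1628938 and 1628754 and also met neighbouring sites, so their scores are not of this site alone. The site from 1937847 to 1939249 (152.2) met a peak of 3100 in both. In replicate 1 that peak began at 1936410 and also met the site before it. From 2.0 to 2.5 Mb the highest site ran from 2149826 to 2150936 (157.4), with up to 2836 and 2642 in the replicates. From 2.5 to 3.0 Mb it ran from 2596790 to 2597426 (153.5), with 1531 and 1085.

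Wide peaks were rarer there. A single peak of 6332 bp, from 2496917 to 2503248 (score 103.1), stood in no run and met 1 peak in each replicate. Peaks of at least 2 kb numbered 21 on the left end, 13 of them in the first 0.6 Mb, and 31 on the longer rest of III. In the first 0.6 Mb peaks found in both replicates had a median width of 1245.5 bp, against 530 bp from 0.6 to 3.0 Mb.

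Peaks sat close together on this end. The median gap between neighbours was 1133 bp on the left end and 2240 bp on the rest of III in the series-wide list, 1746.5 and 7402 bp in replicate 1, and 2241 and 12647 bp in replicate 2. Runs of at least 2 peaks with gaps of at most 1 kb took in 451 of the 668 peaks (67.5%) and 59.0% of peaks on the rest of III. In replicate 1 they took in 59.9% against 44.6%, and in replicate 2 53.0% against 32.4%. The run with the most peaks held 17 on the left end and 16 on the rest of III in the series-wide list. In replicate 1 it held 16 and 7, and in replicate 2 it held 7 and 10. Gaps and runs depend on the density of peaks, which was higher on the left end in all 3 lists. These values are thus not independent of that density, and clustering beyond it was not tested. Few replicate peaks were split in the series-wide list. Of the 419 replicate 1 peaks 375 met 1 series-wide peak, 35 met more and 9 met none, and of the 287 replicate 2 peaks 268 met 1, 17 met more and 2 met none.

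Not all peaks were shared by the replicates. On this end 171 replicate 1 peaks and 43 replicate 2 peaks met none in the other library, and the highest-scoring are given here. The highest-scoring site found in replicate 2 alone ran from 1017282 to 1020642 (3361 bp, score 35.1). Its replicate 2 peak, from 1017224 to 1020753, had a score of 3100, and replicate 1 had no peak there. The next unshared peak of replicate 2 on this end scored 422.0. In replicate 1 the highest-scoring peak without a partner ran from 393219 to 396524 (3306 bp, score 1354) and met series-wide peaks of at most 12.7. The highest series-wide site found in replicate 1 alone ran from 1895514 to 1896021 (score 43.7, replicate 1 score 466.1). The highest found in neither ran from 1225194 to 1225391 and scored 19.8. At the limit of the interval the last peaks inside were at 2990736, 2992330 and 2993364, with scores of 4.70, 10.9 and 6.67. The first outside were at 3009373, 3011290 and 3019863, with scores of 6.67, 7.66 and 12.1.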

How the data were processed

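The data were 3 deposited peak lists, 1 for each ZIM-1 ChIP replicate and 1 for the whole series; input values were not used here. BWA and the build ce10, the UCSC name of WS220, are given per the submitters' processing notes, and MACS or MACS v2 per the source column of the deposited files. The score per peak is the authors' own, and the deposited lists do not say what it measures. Caller settings, the control and any pooling of reads are not given in the sources used here, so read depth and its precision are unknown.

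Peaks were placed by midpoint. An overlap of at least 1 bp counted as found. Densities have exact Poisson intervals and shares exact Clopper-Pearson intervals at 95%, which treat peaks as independent and cover counting error only. No test was made over peaks, which cluster, and 2 ChIP libraries without control lists allow none over samples. The length of III was its last base in any list, 13783723. Python 3.11.15 with numpy 2.4.6, pandas 2.3.3, scipy 1.17.1 and matplotlib 3.10.9 was used; overlap, coverage and runs were tested on simulated lists. Alternatives were single replicate lists, the higher-scoring 50%, a limit of 2 Mb, an overlap of 50% of both peaks, and other windows and gaps.

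The members and naming rules were chosen with earlier results of these data known. By rule, the text names the 20 highest-scoring peaks (ties by width), the highest of each 0.5 Mb, the first, the widest, and the highest found in 1 replicate alone or in neither. It also names the 5 longest runs and gaps, the 10 densest and 3 emptiest windows and the peaks next to the limit. Genes and sequence were not examined, since the annotation at hand is of a different assembly, WBcel235.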

Additional observations from a re-analysis of the deposited data

How the results depend on the processing

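No paired analysis was possible because no ChIP value had an input value beside it. The density ratio of the left 3 Mb to the rest of III stayed above 1 in each of 6 alternatives, from 1.74 with runs counted once to 2.93 with peaks found in both replicates. It was 2.76 in the higher-scoring 50% and ran from 2.32 to 2.83 in single replicates. The share found in both was 34.2% in the higher-scoring 50% and 30.5% at an overlap of 50% of both peaks, and 44.0% to 63.8% were found in a given replicate. The share of replicate 2 peaks found in replicate 1 was 92.9% in the higher-scoring 50%, 90.0% within 2 Mb and 75.3% at the stricter overlap. For none of these shares was the matching share over all nuclear peaks computed, so they cannot be set against a background. Covered bases were 9.56% in the higher-scoring 50% and 8.51% to 10.9% in single replicates. The median member stood at the 67.9th percentile of series-wide scores and at the 53.1 to 60.6 percentile in single replicates. The densest 10 of 30 windows held 61.6% in the higher-scoring 50% and 59.4% to 63.1% in single replicates; the matching share of windows held 59.1% within 2 Mb, 60.6% with 50 kb and 51.0% with 200 kb windows. The share in runs was 56.9% in the higher-scoring 50%, 73.9% within 2 Mb, 46.3% with gaps of 500 bp, 82.3% with gaps of 2 kb and 53.0% to 59.9% in single replicates. The rank correlation of the replicate scores was 0.86 at the stricter overlap. Causes were not tested. Unknown depth limits what a missing peak shows.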
